A study of Homo sapiens with 12 samples.

Results

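The transcripts described here encode the 8 subunits of the writer complex of N6-methyladenosine (m6A), a methyl mark on messenger RNA. METTL3, METTL14, WTAP, VIRMA, RBM15, RBM15B, ZC3H13 and CBLL1 were taken by gene name from 19923 genes in the deposited counts, and all 8 were found in each of the 12 libraries and had enough reads to be tested in every comparison. The libraries come from 2 established human lines of neuroblastoma, SK-N-BE2 and NGP, labelled as wild type and MYCN-amplified. Each line was kept for 6 days with STM2457, a small-molecule inhibitor of METTL3, or with the solvent DMSO, and each of the 4 groups had 3 replicates. SK-N-BE2 received 12 µM STM2457 and NGP received 1 µM, so line and dose cannot be told apart.

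The writer works as a nuclear complex. METTL3 carries the active site, to which STM2457 binds, and METTL14 pairs with it to hold the RNA. WTAP anchors this pair to a regulatory module in which VIRMA is the scaffold, RBM15 and its paralogue RBM15B bind RNA and recruit the enzyme to it, ZC3H13 keeps the complex in the nucleus and CBLL1 (HAKAI) is a RING-type ubiquitin ligase homologue. The mark is bound by readers and removed by erasers, and it influences splicing, export, translation and decay of the transcript. The measurements below are of the subunits' own transcripts, not of their proteins or of m6A.

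The 250 bases before each start were taken from RefSeq (GRCh38.p14) for 7 members, all except VIRMA, as a description of their promoters. Searched on both strands, CCGGAAG, a core sequence of ETS factor sites, occurred in 4 of the 7 and in 8.52% of all 35116 promoters in the table. These 4 sites are shown as 30 bases each, 5′ to 3′ along the gene, with the match in capitals.
METTL3 (chr14:21511452-21511481, minus strand): cctcactgtgtCCGGAAGcatgagagagcg
METTL14 (chr4:118685345-118685374, plus strand): aggaggcgggaCTTCCGGgccaagcgagcc
ZC3H13 (chr13:46052762-46052791, minus strand): taatctgacggCCGGAAGctgcctgggtct
CBLL1 (chr7:107744074-107744103, plus strand): cctcccggcctCCGGAAGgcagtgcgcacg
In METTL14 the match is on the opposite strand and is printed as CTTCCGG. The E-box CACGTG, which MYC family factors can bind and which reads the same on both strands, occurred in both RBM15 paralogues and in none of the other 5, against 6.34% of all promoters. These sites are shown in the same way.
RBM15 (chr1:110339184-110339213, plus strand): aacactttgggtCACGTGaccgcagagtgc
RBM15B (chr3:51391193-51391222, plus strand): ccgccgcagagtCACGTGgcaggacggcgc
The windows overlap annotated exons of the member or a neighbour in every case but RBM15B. By the gene positions given below, the windows of RBM15 and WTAP lie inside the gene, where RefSeq places the start further along. Those of CBLL1, METTL3 and ZC3H13 reach into the gene in part. TGACGTCA and TGATGCAA were in 0 of the 7 and in 1.65% and 0.772% of all promoters. The matches are letters in a window and say nothing of binding in these cells. Their relation to the changes described below was not tested.

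The genes lie on 8 chromosomes (GRCh38, positions as in the deposited files, counted from 1). METTL3 lies on chromosome 14 from 21498133 to 21511342 (minus strand), METTL14 on chromosome 4 from 118685392 to 118715433 (plus strand) and WTAP on chromosome 6 from 159725585 to 159756319 (plus strand). VIRMA lies on chromosome 8 from 94487689 to 94553529 (minus strand), ZC3H13 on chromosome 13 from 45954465 to 46052759 (minus strand) and CBLL1 on chromosome 7 from 107743949 to 107761667 (plus strand). The paralogues are unlinked, with RBM15 on chromosome 1 from 110338506 to 110346681 and RBM15B on chromosome 3 from 51391285 to 51397908, both on the plus strand. Exons of DCAF1 on the other strand cover 20% of the exon length of RBM15B, and the counting did not use strand, so the values of RBM15B are uncertain. For the other 7 members the shared exon length was between 0 and 6.81%, the highest being WTAP with SOD2.

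Libraries held between 47242379 and 58159937 reads, and within each line the totals did not separate treatments. Each line was sequenced in a run of its own by the file headers, so line and run cannot be told apart. NGP DMSO replicate 1 stood apart: over 14731 genes its median absolute log2 distance from the other 2 libraries of its group was 0.346, against 0.0835 to 0.246 for the other 11 libraries, and values without it are given beside the results it changes most. Of the adrenergic neuroblastoma markers, MYCN was high in all 4 groups (means from 3970 to 4430 CPM), while TH stood at 234 ± 31.3 CPM in SK-N-BE2 DMSO but at 0.512 ± 0.38 CPM in NGP DMSO (SD, n = 3). Summed immune and epithelial markers stayed between 0.886 and 7.41 CPM. Endothelial markers summed to between 5.9 and 11.2 CPM in SK-N-BE2 and to at most 0.877 CPM in NGP. Fibroblast markers moved with treatment. When SK-N-BE2 was treated, COL1A1 went from 8.41 ± 1.55 to 18.4 ± 0.435 CPM, PDGFRB from 38.6 ± 5.01 to 49.3 ± 1.87 CPM and DCN from 44.6 ± 3.55 to 97.4 ± 4.96 CPM. When NGP was treated, COL1A1 went from 29.8 ± 3.45 to 124 ± 4.84 CPM, PDGFRB from 29.6 ± 4.0 to 141 ± 8.56 CPM and DCN from 0.158 ± 0.119 to 1.62 ± 0.374 CPM. Their part in the results below was not tested.

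The first comparison asked how the subunits respond to STM2457 in SK-N-BE2. METTL3 rose 1.44-fold, while its partner METTL14 fell 1.29-fold, WTAP 1.24-fold and CBLL1 1.28-fold. RBM15 fell most of the 8, by 2.19-fold. VIRMA, RBM15B and ZC3H13 did not pass the test. Fold changes are from edgeR's quasi-likelihood fit of the line's 6 libraries, called at a Benjamini-Hochberg adjusted p under 0.05 over all genes tested. Of the 8 members, 5 were called, 1 higher and 4 lower, in a comparison that called 54.7% of 14013 genes, 26.9% higher and 27.8% lower. The median log2 fold change of the members was -0.14 and that of all genes -0.02. Replicates of the groups did not overlap for 7 members, against 62.2% of all genes. A count of members called is therefore near the background, and what sets the members apart from each other is their direction and size. In bulk RNA a change in the number of expressing cells and in RNA per cell cannot be told apart.

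METTL3, the catalytic subunit, stood at 57.3, 50.8 and 54.0 CPM in the SK-N-BE2 DMSO libraries and at 80.8, 78.0 and 79.7 CPM with STM2457. CPM is reads scaled to library size on the TMM scale of all 12 libraries, so ratios of CPM can differ a little from the fitted folds. The groups were far apart compared with their spread, and the log2 fold change was 0.52 ± 0.08 (SE, adjusted p 0.000106 in edgeR). METTL14, which has no catalytic activity of its own in the pair, stood at 46.2, 48.5 and 46.1 CPM with DMSO and at 34.7, 39.6 and 38.0 CPM with STM2457. All 3 treated libraries lay below all controls, with a log2 fold change of -0.36 ± 0.09 (SE, adjusted p 0.00317 in edgeR).

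WTAP, the adaptor, stood at 141, 167 and 139 CPM with DMSO and, treated, at 124, 124 and 122 CPM in this line. The treated libraries lay close together below the controls, and the log2 fold change was -0.31 ± 0.09 (SE, adjusted p 0.00889 in edgeR). CBLL1, the ubiquitin ligase homologue, went from 75.3, 64.6 and 62.9 CPM to 56.8, 55.9 and 50.1 CPM, again without overlap (-0.36 ± 0.09 SE, adjusted p 0.00507 in edgeR). These 4 calls, METTL3 included, held whichever of the 6 libraries was omitted. VIRMA, the scaffold, went from 105 ± 7.67 to 118 ± 5.12 CPM (SD, n = 3), and the 95% interval of its log2 fold change ran from -0.04 to 0.32 (adjusted p 0.164 in edgeR). ZC3H13, the nuclear anchor, measured 118 ± 10.5 and 139 ± 7.48 CPM, with an interval from 0.01 to 0.39 (adjusted p 0.0653 in edgeR). Without DMSO replicate 1 ZC3H13 was called, at a log2 fold change of 0.27 (adjusted p 0.0106 in edgeR).

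RBM15 and RBM15B, paralogous RNA-binding subunits, responded unequally in SK-N-BE2. RBM15 stood at 109, 102 and 108 CPM with DMSO and at 49.1, 47.6 and 52.5 CPM with STM2457. All 3 treated libraries lay far below the lowest control, with a log2 fold change of -1.13 ± 0.08 (SE, adjusted p 1.24e-07 in edgeR). RBM15B stood at 82.5, 100 and 100 CPM with DMSO and at 106, 95.2 and 97.6 CPM with STM2457. Its groups overlapped, and the interval of its log2 fold change ran from -0.16 to 0.24 (adjusted p 0.735 in edgeR).

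**Figure D1:**
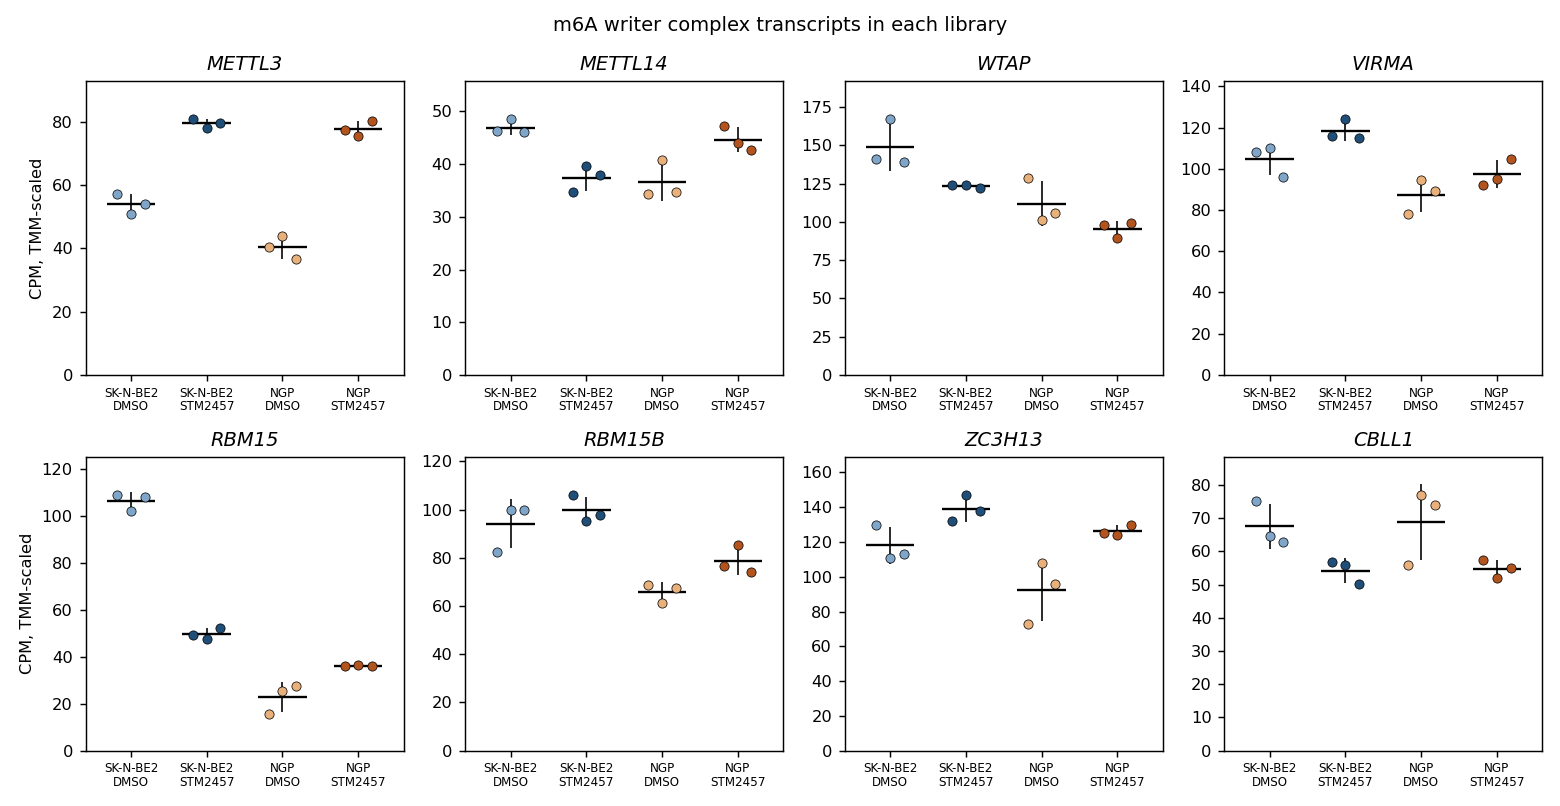
Points are the TMM-scaled CPM of each library for the 8 writer transcripts, by line and treatment, with the group mean (horizontal line) and SD (vertical line, n = 3), each panel on its own linear axis from 0. METTL3 was higher with STM2457 in both lines, while RBM15 fell from 106 to 49.7 CPM in SK-N-BE2 and went from 22.9 to 36.2 CPM in NGP.

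The same question was asked in NGP. METTL3 rose 1.89-fold, RBM15 1.55-fold and ZC3H13 1.35-fold, and no member was called lower, with CBLL1 (unadjusted p 0.03) the single member at an unadjusted p under 0.05 in that direction. Of the 8 members, 3 were called, all higher, in a comparison that called 41.7% of 13610 genes, 19.4% higher and 22.2% lower. The median log2 fold change of the members was 0.25 and that of all genes -0.03. Replicates of the groups did not overlap for 6 members, against 54.7% of all genes. As in SK-N-BE2, the share of members called is near the background, and the count rests on few libraries. It fell to 1 (METTL3) without any one of the 3 STM2457 libraries and rose to 5 without DMSO replicate 1, when RBM15B and CBLL1 were called too. A joint fit of all 12 libraries called 6, and DESeq2 on the NGP libraries called 3.

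METTL3 stood at 40.4, 44 and 36.8 CPM in the NGP DMSO libraries and at 77.3, 75.5 and 80.4 CPM with STM2457. The groups were far apart, and the log2 fold change was 0.92 ± 0.11 (SE, adjusted p 0.0003 in edgeR), the same to 2 decimals without DMSO replicate 1. METTL14 stood at 34.3, 40.8 and 34.8 CPM with DMSO and at 47.2, 44 and 42.6 CPM with STM2457. The treated libraries lay above the controls without overlap, yet the log2 fold change of 0.26 (SE 0.11) did not pass the test (adjusted p 0.1 in edgeR), though it passed without DMSO replicate 2 (0.34, adjusted p 0.0476 in edgeR).

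RBM15 in NGP stood at 15.5, 25.6 and 27.6 CPM with DMSO and at 36.0, 36.5 and 36.2 CPM with STM2457. The lowest control was NGP DMSO replicate 1, and the treated libraries were nearly equal. The log2 fold change was 0.64 ± 0.20 (SE, adjusted p 0.0315 in edgeR). It was 0.42 without DMSO replicate 1 (adjusted p 0.00144 in edgeR), and it was no longer called when any STM2457 library was left out (adjusted p up to 0.0847 in edgeR). RBM15B went from 65.8 ± 3.94 to 78.7 ± 5.89 CPM (SD, n = 3), with an interval from 0.00 to 0.47 on the log2 scale (adjusted p 0.0991 in edgeR).

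ZC3H13 stood at 72.8, 108 and 95.8 CPM in NGP DMSO and at 125, 124 and 130 CPM with STM2457. DMSO replicate 1 was again the lowest, and the log2 fold change of 0.43 ± 0.14 (SE, adjusted p 0.0415 in edgeR) was 0.28 without it (adjusted p 0.00777 in edgeR). The call was lost without DMSO replicate 3 or without any one of the STM2457 libraries (adjusted p up to 0.122 in edgeR). CBLL1 stood at 55.9, 77.0 and 73.9 CPM with DMSO and at 57.4, 52.0 and 55.1 CPM with STM2457. The low control was replicate 1 once more, and without it the log2 fold change went from -0.36 (adjusted p 0.0664 in edgeR) to -0.49 (adjusted p 0.000352 in edgeR). WTAP stood at 129, 101 and 106 CPM with DMSO and at 97.9, 89.3 and 99.2 CPM with STM2457, with a log2 fold change of -0.25 (interval from -0.52 to 0.01, adjusted p 0.114 in edgeR) that was -0.14 without DMSO replicate 1 (adjusted p 0.108 in edgeR). VIRMA overlapped between the groups, at 87.4 ± 8.35 and 97.2 ± 6.5 CPM (log2 fold change 0.13, or 0.053 without DMSO replicate 1, interval from -0.12 to 0.38, adjusted p 0.373 in edgeR).

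Whether the responses differ between the lines was tested as the difference of the log2 fold changes, SK-N-BE2 minus NGP, over all 12 libraries. RBM15 differed most of the 8, falling in one line and rising in the other, and METTL14 and METTL3 differed as well. Line, dose and sequencing run cannot be told apart in this test. Of the 8 members 3 were called, all with the more positive response in NGP (median of the members -0.20, of all genes 0.02), where 30.9% of 14731 genes were called, 17.0% more positive in SK-N-BE2 and 13.9% more positive in NGP. The difference for RBM15 was -1.76 ± 0.22 (SE, adjusted p 4.67e-05 in edgeR), and -1.56 without NGP DMSO replicate 1. For METTL14 it was -0.61 ± 0.13 (SE, adjusted p 0.00361 in edgeR). Both were called whichever of the 12 libraries was omitted.

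METTL3 rose in both lines, and the difference of the rises was -0.39 (log2, SE 0.12, adjusted p 0.0279 in edgeR). This call was lost without SK-N-BE2 DMSO replicate 1, any SK-N-BE2 STM2457 replicate, NGP STM2457 replicate 1 or 3, or NGP DMSO replicate 3 (up to 0.0771 in edgeR), and when genes of low count were not filtered out (0.0576). The other 5 members were not called. Their 95% intervals were from -0.36 to 0.27 for WTAP, from -0.26 to 0.31 for VIRMA, from -0.48 to 0.12 for RBM15B, from -0.59 to 0.15 for ZC3H13 and from -0.35 to 0.37 for CBLL1, so differences of these sizes remain possible.

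The control libraries were compared to show where the lines start from. SK-N-BE2 DMSO held more of 5 transcripts than NGP DMSO, by 4.66-fold for RBM15, 1.44-fold for RBM15B, 1.35-fold for METTL3, 1.34-fold for WTAP and 1.29-fold for METTL14. No member was called lower, and CBLL1, the 1 member with a fold below 1, had an unadjusted p of 0.905 (DESeq2 called none lower either). The share of members called is again near the background, 64.8% of 14336 genes, 33.0% higher and 31.8% lower in SK-N-BE2. The median log2 difference of the members was 0.40 and that of all genes 0.01. Replicates of the lines did not overlap for 7 of 8 members, against 69.4% of all genes.

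RBM15 had the largest baseline difference of the 8, with 109, 102 and 108 CPM in SK-N-BE2 against 15.5, 25.6 and 27.6 CPM in NGP. Its log2 difference was 2.22 ± 0.21 (SE, adjusted p 4.88e-06 in edgeR), and 2.02 without NGP DMSO replicate 1. The STM2457 libraries stood at 47.6 to 52.5 CPM in SK-N-BE2 and at 36.0 to 36.5 CPM in NGP, at doses that differed. RBM15B differed by 0.53 ± 0.13 (SE, adjusted p 0.00389 in edgeR), and both paralogues were called whichever library was omitted. The smaller differences were less stable. METTL3 (0.43 ± 0.13 SE, adjusted p 0.0132 in edgeR) lost its call without SK-N-BE2 DMSO replicate 1 or NGP DMSO replicate 3. METTL14 (0.37 ± 0.13 SE, adjusted p 0.0282 in edgeR) lost it without any SK-N-BE2 DMSO library or NGP DMSO replicate 3. WTAP (0.42 ± 0.14 SE, adjusted p 0.0191 in edgeR) lost it without SK-N-BE2 DMSO replicate 2 or NGP DMSO replicate 2 or 3. VIRMA (interval from -0.02 to 0.56, adjusted p 0.0918 in edgeR), ZC3H13 (0.37, or 0.23 without NGP DMSO replicate 1, interval from 0.01 to 0.73, adjusted p 0.0697 in edgeR) and CBLL1 (from -0.36 to 0.33, adjusted p 0.92 in edgeR) were not called.

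**Figure D2:**
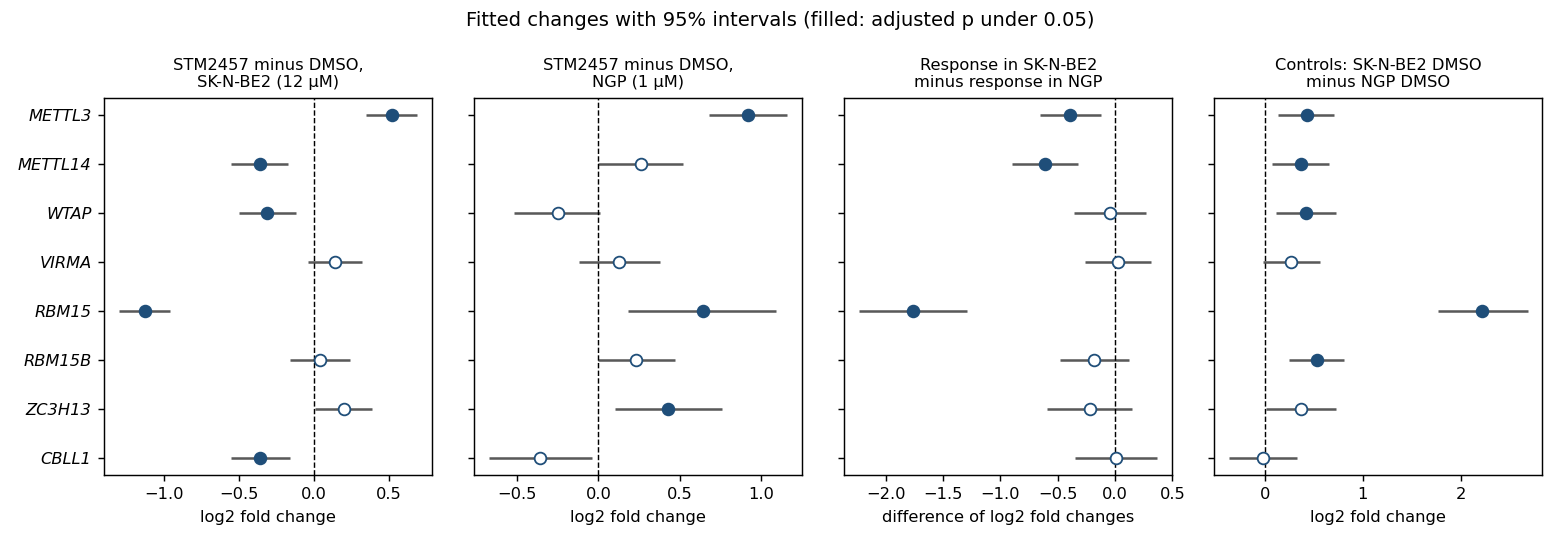
Points are fitted log2 changes of the 8 transcripts, horizontal lines their 95% intervals from edgeR's quasi-likelihood fit, and filled points passed an adjusted p of 0.05, with a separate horizontal scale in each panel. RBM15 lies at -1.13 in SK-N-BE2, 0.64 in NGP, -1.76 for the difference of responses and 2.22 between the controls.

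Levels of different subunits were compared per kilobase of exon length, as CPM per kb. This length counts all annotated exon bases of a gene once, whichever isoforms these cells use. The order of different genes, their shares and the size of their ratios therefore depend on the annotation. The length cancels in the log2 difference of one ratio between groups. WTAP had the highest mean in all 4 groups, at 23.2 ± 2.41 CPM per kb in SK-N-BE2 DMSO, 19.2 ± 0.185 in SK-N-BE2 STM2457, 17.5 ± 2.36 in NGP DMSO and 14.9 ± 0.835 in NGP STM2457 (SD, n = 3). METTL14 had the lowest mean in 3 groups, from 5.48 to 6.86 CPM per kb. In NGP DMSO it overlapped with RBM15, which was lowest there at 4.91 ± 1.39. In SK-N-BE2 DMSO RBM15 was next to WTAP at 22.8 ± 0.779 CPM per kb, above WTAP in replicates 1 and 3 and below it in replicate 2, and clear of RBM15B at 14.2 ± 1.54. RBM15B overlapped with CBLL1 (12.9) and CBLL1 with ZC3H13 (11.5), which lay clear of VIRMA (9.71). VIRMA overlapped with METTL3 (9.21). With STM2457 the order in SK-N-BE2 was WTAP, RBM15B (15.0), ZC3H13 and METTL3 (both 13.6), then VIRMA (11.0), RBM15 (10.6) and CBLL1 (10.4), which overlapped in turn, and METTL14 (5.48).

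In NGP DMSO the order was WTAP, CBLL1 (13.2), RBM15B (9.93), ZC3H13 (8.98), VIRMA (8.11), METTL3 (6.9), METTL14 (5.36) and RBM15, with overlap at each step from RBM15B to METTL3. With STM2457 METTL3 stood in second place in NGP at 13.3 ± 0.42 CPM per kb, above ZC3H13 (12.3) and RBM15B (11.9), which overlapped, and above CBLL1 (10.5), VIRMA (9.02), RBM15 (7.76) and METTL14 (6.52). As a share of the summed reads per kb of the 8, METTL3 was 8.35% ± 0.553 in SK-N-BE2 DMSO and 13.7% ± 0.31 with STM2457, and 9.22% ± 0.807 and 15.4% ± 0.278 in NGP. RBM15 was 20.6% ± 1.0 and, treated, 10.8% ± 0.637 in SK-N-BE2, against 6.51% ± 1.62 and, treated, 9.01% ± 0.187 for NGP. In each of these pairs the treated and control libraries did not overlap.

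**Figure D3:**
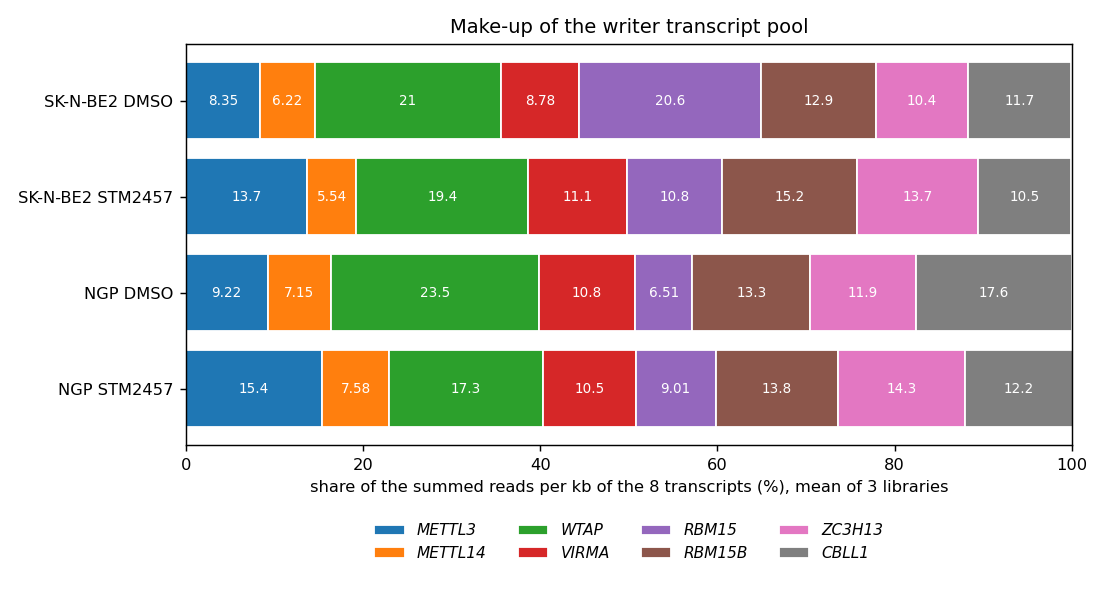
Bars show the mean share (%) of each transcript in the summed reads per kb of the 8 subunits, over 3 libraries per group, on a scale from 0 to 100%. The METTL3 segment is wider with STM2457 in both lines, and the RBM15 segment is 10.8% against 20.6% in SK-N-BE2 but 9.01% against 6.51% in NGP.

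Ratios of reads per kb between 2 subunits were taken within each library, where library scaling cancels. Of 18 comparisons (6 ratios, each between treatments in both lines and between the controls), none can pass 0.05, since the smallest p of the exact two-sided permutation test with 3 libraries against 3 is 0.1. The METTL14 to METTL3 ratio was 0.691, 0.819 and 0.733 in SK-N-BE2 DMSO and 0.368, 0.435 and 0.409 with STM2457. In NGP it was 0.726, 0.794 and 0.811 with DMSO and 0.524, 0.499 and 0.454 with STM2457. The treated ratios lay below all controls in both lines, a difference of -0.89 and -0.66 on the log2 scale (exact permutation p 0.1 each, 0.164 adjusted over the 18). The controls of the lines overlapped, with a log2 difference of -0.06 (exact permutation p 0.7).

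The WTAP to METTL3 ratio was also lower with STM2457, with a geometric mean of 1.42 against 2.52 in SK-N-BE2 and of 1.12 against 2.52 in NGP, a log2 difference of -0.83 and -1.17 without overlap (exact permutation p 0.1). Relative to WTAP, VIRMA went from 0.419 to 0.572 (SK-N-BE2) and 0.466 to 0.606 (NGP). ZC3H13 went from 0.496 to 0.705 and 0.511 to 0.827. Treatments did not overlap in either ratio (exact permutation p 0.1 each). For VIRMA in NGP the gap was very small, with the highest control at 0.558 and the lowest treated library at 0.56. Without NGP DMSO replicate 1 the NGP log2 differences went from 0.38 to 0.20 for VIRMA and from 0.70 to 0.43 for ZC3H13. The CBLL1 to WTAP ratio overlapped between treatments, with log2 differences of -0.05 (SK-N-BE2) and -0.09 (NGP) (exact permutation p 0.8 each). The overlap in NGP rests on DMSO replicate 1, at 0.531. The other controls, at 0.937 and 0.856, lay above the treated libraries at 0.719, 0.714 and 0.682, and without replicate 1 the log2 difference was -0.35.

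The RBM15 to RBM15B ratio was 1.87, 1.44 and 1.53 in SK-N-BE2 DMSO and 0.658, 0.71 and 0.763 with STM2457, so the order of the paralogues changed. In NGP it was 0.321, 0.593 and 0.58 with DMSO and 0.667, 0.607 and 0.692 with STM2457. The treated libraries of the lines overlapped in this ratio, while the controls differed by 1.74 on the log2 scale (exact permutation p 0.1). The NGP log2 difference between treatments was 0.45, and 0.16 without DMSO replicate 1. With 20% of the exon length of RBM15B shared with DCAF1, its level and the order of the paralogues are uncertain.

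**Figure D4:**
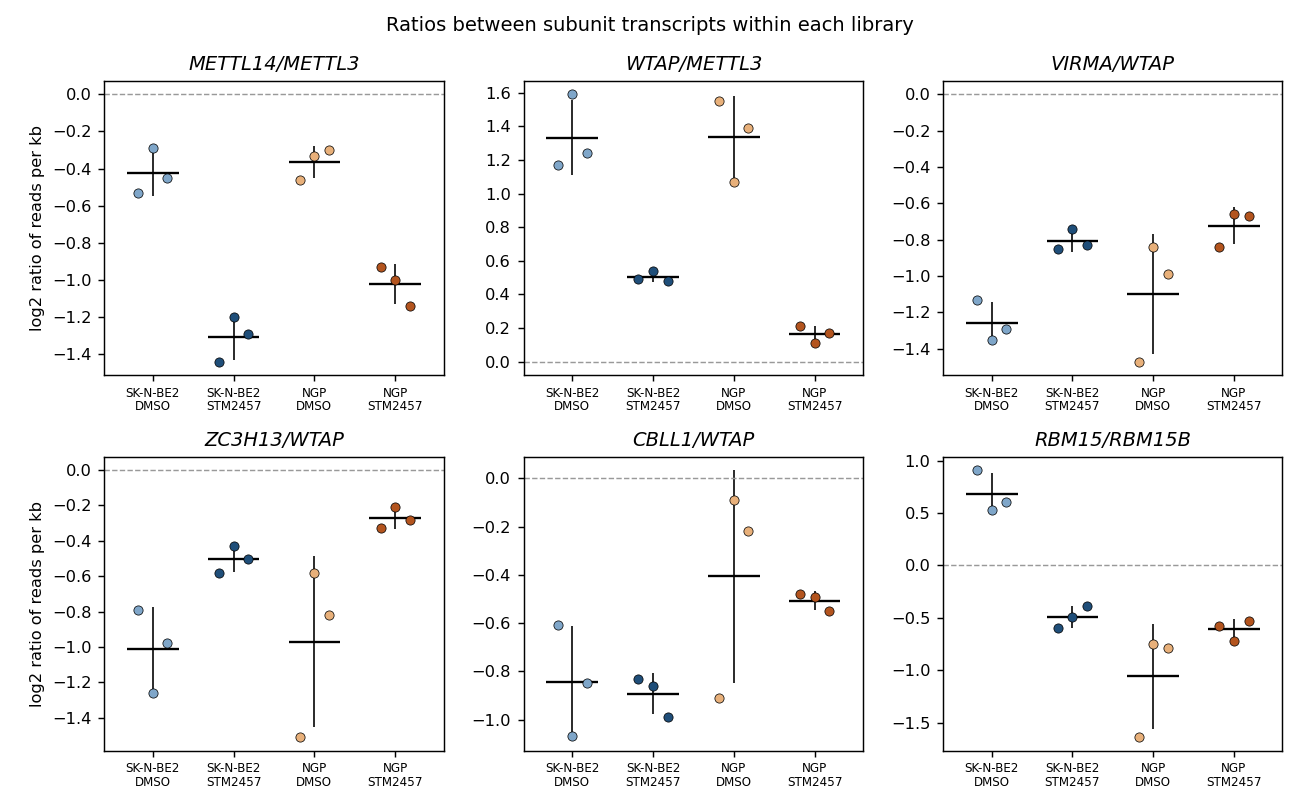
Points are the log2 ratio of reads per kb of 2 subunits in each library, with the group mean and SD (n = 3), each panel on its own scale. A dashed line marks equal reads per kb. The METTL14 to METTL3 and WTAP to METTL3 ratios are lower with STM2457 in both lines, and NGP DMSO replicate 1 (leftmost point of its group) lies away from its group for the 3 ratios to WTAP's regulatory partners and for RBM15/RBM15B.

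Other genes of m6A biology were examined as lists, whose counts are to be read against the share of all genes called, 54.7% for SK-N-BE2 and 41.7% for NGP. The shares called in the first and the next list were near these. Of 13 erasers and readers tested, 9 were called in SK-N-BE2, 4 higher and 5 lower (median 0.19), and 5 in NGP, 4 higher and 1 lower (median 0.14). FTO, which removes the mark, rose by 0.70 on the log2 scale in SK-N-BE2 (adjusted p 1.44e-05 in edgeR). In NGP it changed by 0.28 and was not called (adjusted p 0.143 in edgeR). HNRNPA2B1, an RNA-binding protein of the nucleus, rose by 0.59 in SK-N-BE2 and by 0.49 in NGP (adjusted p 0.000169 and 0.0136 in edgeR). RBMX, which binds RNA opened by m6A, rose in SK-N-BE2 by 0.50 (adjusted p 0.000267 in edgeR). IGF2BP3 and IGF2BP1, readers that stabilise transcripts, rose in NGP by 0.93 and 0.66 (adjusted p 0.0155 and 0.00176 in edgeR). In SK-N-BE2 IGF2BP3 changed by 0.21 and was not called (adjusted p 0.161 in edgeR). IGF2BP1 was nearly absent there, at a mean of 0.285 CPM with DMSO against 306 CPM in NGP DMSO. IGF2BP3 shares 17.8% of its exon length with MALSU1.

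Of 10 other RNA methyltransferases and genes of S-adenosylmethionine supply, 6 were called in SK-N-BE2, 3 in each direction (median -0.06), and 3 in NGP, 1 higher and 2 lower (median 0.10). MAT2A, which makes the methyl donor S-adenosylmethionine and whose transcript is itself controlled by the m6A methyltransferase METTL16, fell in SK-N-BE2 from 2240 ± 206 to 496 ± 15.5 CPM (SD, n = 3). The change there was -2.21 (log2) (SE 0.10, adjusted p 3.08e-09 in edgeR) and -0.41 in NGP (SE 0.11, adjusted p 0.0206 in edgeR). MAT2B, its regulatory partner, rose by 0.68 in SK-N-BE2 (adjusted p 2.97e-05 in edgeR), and ZCCHC4, which methylates ribosomal RNA, fell by 0.47 (adjusted p 0.00188 in edgeR). METTL5 fell by 0.65 in NGP (adjusted p 0.00436 in edgeR). Its activator TRMT112 rose by 0.48 in NGP and fell by 0.37 in SK-N-BE2 (adjusted p 0.033 and 0.0277 in edgeR). MAT2A, METTL5 and TRMT112 share 12.5%, 20% and 17.5% of their exon length with other genes and are uncertain.

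The exon junction complex, which keeps m6A away from splice junctions, had 2 of 8 members called in SK-N-BE2, both lower (median -0.13), fewer than the 54.7% of all genes, and 5 in NGP, where 41.7% of all genes were called, 1 higher and 4 lower (median -0.09). EIF4A3, its core helicase, fell by 0.39 in SK-N-BE2 and rose by 0.41 in NGP (adjusted p 0.00142 and 0.0263 in edgeR). PYM1, which takes the complex apart, fell by 0.73 in SK-N-BE2 (adjusted p 0.000348 in edgeR), and UPF3B and CASC3 fell in NGP by 0.47 and 0.41 (adjusted p 0.00792 and 0.00818 in edgeR). PYM1 and UPF3B are uncertain, with 14.7% and 13.8% of their exon length shared. Of 9 partners of WTAP and RBM15 in nuclear RNA processing, 3 were called in SK-N-BE2, 2 higher and 1 lower (median -0.04), and 6 in NGP, 5 higher and 1 lower (median 0.32). PNN, a nuclear speckle protein, rose in both lines by 0.41 and 0.64 (adjusted p 0.00171 and 0.000692 in edgeR). SF3B1, a core splicing factor, rose in SK-N-BE2 by 0.33 (adjusted p 0.00547 in edgeR). BCLAF1 fell by 0.24 in SK-N-BE2 and rose by 0.94 in NGP (adjusted p 0.0447 and 0.00062 in edgeR). SETD1B, a histone methyltransferase subunit, fell in NGP by 0.64 (adjusted p 0.00573 in edgeR).

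Among 9797 genes averaging 10 CPM or more, those whose log2 CPM followed METTL3 most closely over the 12 libraries were PCGF3, PRMT2 and BOC (Pearson r 0.978, 0.975 and 0.973). Of all genes compared, 141 reached 0.9. Within the complex ZC3H13 came closest to METTL3 (r 0.835), while METTL14 had r 0.215 and CBLL1 -0.698. RBM15 was followed by THUMPD1, SUPT7L and VCPIP1 (r 0.979, 0.979 and 0.976), and RBM15B had r 0.719 with it. These values describe 12 libraries that fall into 4 groups and share library depth and scaling, and no p is given.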

How the data were processed

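Gene expression was measured by sequencing polyadenylated RNA in 12 libraries, whose titles give line, treatment and replicate. The labels name replicates without saying whether they are separate cultures, so p-values measure the spread between these libraries, which may be technical. The deposited tables hold raw counts per gene. Per the file headers, the authors made them with featureCounts 2.0.5 on exons of GENCODE 33 protein-coding genes, with no strand or multi-mapping option. The submitters' processing notes also name Trimmomatic 0.36, HISAT2 2.1.0 and Subread 1.5.3. Counts from 1 to 20 were mostly even (72.1% to 75.4% by library), so both mates of a pair may have been counted.

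edgeR 4.0.16 (R 4.3.3) was run on the counts after filterByExpr at its minimum count of 10, with TMM factors, its quasi-likelihood test and Benjamini-Hochberg adjustment (threshold 0.05) over all genes, separately for each line, for the DMSO libraries and, for the difference of responses, over all 12. SE is the size of the log2 change divided by the root of F. Ratios used exact permutation tests (scipy 1.17.1). Alternatives included DESeq2 1.42.0. Changes are relative to the rest of the library. The members, lists and the naming rule (all members, up to 3 called genes per list and line by size of change, and the 3 genes most like METTL3 and RBM15) were chosen with earlier results of these data known. Overlaps were counted against GENCODE 44. The fitting script was tested on simulated data. Depth was 47242379 to 58159937 reads per library, at which the members had 782 to 8287 reads each. Some marker genes are not reported here.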

Additional observations from a re-analysis of the deposited data

Results flagged for a closer look

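Responses to STM2457 differed between SK-N-BE2 and NGP, by the test of the difference itself, for 3 of the 8 writer transcripts, in a comparison that called 30.9% of all genes. The differences (SK-N-BE2 minus NGP, log2) were -0.39 for METTL3, -0.61 for METTL14 and -1.76 for RBM15 (edgeR adjusted p 0.0279, 0.00361 and 4.67e-05). The METTL3 call was lost in 7 of the 12 fits with 1 library left out, the other calls in none. Among the other m6A genes named, the response was more positive in SK-N-BE2 for RBMX (0.58), MAT2B (0.65), METTL5 (0.46) and CASC3 (0.54), with edgeR adjusted p from 0.000968 to 0.0342. It was more positive in NGP for MAT2A (-1.8), ZCCHC4 (-0.61), TRMT112 (-0.84), PYM1 (-0.82), EIF4A3 (-0.79) and BCLAF1 (-1.17), with edgeR adjusted p from 1.42e-06 to 0.0152. For FTO, IGF2BP3, IGF2BP1, UPF3B, SF3B1 and SETD1B, each called in 1 line only, the difference was not called (edgeR adjusted p from 0.0555 to 0.777). MAT2A, METTL5, TRMT112, PYM1, IGF2BP3 and UPF3B are uncertain, since part of their exon length is shared with other genes. Dose and sequencing run differed between the lines as well and cannot be told apart from line.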

How the results depend on the processing

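Among the members' log2 fold changes recomputed under the alternatives, 454 kept their direction and their side of the threshold, 12 gained a call, 28 lost one and 26 changed sign. With 1 library left out, the members called ran from 5 to 6 in SK-N-BE2, from 1 to 5 in NGP, from 2 to 3 for the difference of responses and from 2 to 5 between the controls. The joint fit of 12 libraries called 6 in NGP and 7 between the controls, as did upper-quartile factors there, with VIRMA and ZC3H13 added. A fit with the replicate block called 2 between the controls (RBM15 and RBM15B) and took METTL3 out of the called differences of responses (adjusted p 0.0649). Same-numbered libraries did not deviate together, with correlations from -0.074 to 0.088 between treatments within a line and from -0.256 to -0.057 between the controls of the lines, so the numbers were not taken as pairs. All 26 reversals were of changes that were not called: with upper-quartile factors RBM15B in SK-N-BE2 (-0.01), VIRMA and CBLL1 in the difference (-0.042 and -0.056) and CBLL1 between controls (0.028); and CBLL1 in the difference with DESeq2 size factors, a mean of at least 1 CPM or DESeq2 (-0.0016, -0.0032 and -0.0012). The others came from leaving out 1 library, with ranges from -0.049 to 0.093 (RBM15B in SK-N-BE2), from -0.18 to 0.027 (WTAP), -0.059 to 0.082 (VIRMA) and -0.076 to 0.13 (CBLL1) in the difference, and from -0.14 to 0.074 (CBLL1) between controls. The cause was not tested. For the ratios, all 144 recomputed values moved by less than 1 SD (the larger of the groups compared). Leaving out 1 of 3 libraries cannot move a mean by that much, and halved counts or same-numbered pairs hardly alter a ratio. The 144 values are therefore no measure of stability. With 1 library left out, the log2 difference of RBM15/RBM15B between treatments in NGP ranged from 0.16 to 0.60. Each member had at least 782 reads in every library, and 3 libraries per group limit the precision.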
